A study of Mus musculus with 12 samples.

Results

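The cytosolic ribosome and its close relatives are represented here by 75 genes, read in the mouse fibroblast line 3T3. They were chosen by symbol: Rpl or Rps followed by a number, Rpsa, Rplp0, Rplp1 or Rplp2, leaving out the kinases of the Rps6k family and symbols marked as pseudogenes. They were read by 122 of the 38784 probes on the array and make up 75 of the 16969 genes with a probe that carries 1 symbol. By symbol, 28 belong to the small subunit and 47 to the large one. Of the 75, 68 are core ribosomal proteins, 5 are paralogs (Rpl3l, Rpl22l1, Rpl36al, Rpl39l and Rps27l), and 2, Rpl7l1 and Rps19bp1, have a matching symbol without being subunits. A gene was tested if each group had at least 2 arrays with a value: this held for 74 members among 14523 genes, and 69 members had a value on all 12 arrays. The exception was Rps4x, a core protein of the small subunit, which had values on 6 arrays, between -1.89 and -0.34, and was not tested.

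The 4 groups of 3 arrays each were control cells and cells given 10 nM, 100 nM or 1 µM Shld1. This cell-permeable small molecule stabilises proteins carrying a destabilizing domain engineered from FKBP12. Each array held cDNA of 1 sample in Cy5 beside cDNA of the same commercial mouse reference RNA in Cy3, both primed with oligo-dT, so a value is a log2 ratio of cells over reference. The title asks what Shld1 does to 3T3 cells. The labels give no treatment time and do not say whether the cells carried such a fusion protein, nor whether replicates were separate cultures, so p-values measure only the spread between these arrays.

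The ribosome joins a small subunit, which reads the mRNA, to a large subunit, which forms the peptide bond, and its proteins are made in matched amounts. The mRNAs of ribosomal proteins begin with a run of pyrimidines, C or T in the gene, the terminal oligopyrimidine (TOP) motif. Through it the kinase mTOR sets how strongly these mRNAs are translated, and translation is not measured by these arrays.

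Arrays carried values for 30649 to 33615 probes, with medians of -0.20 to -0.10 before centring. The log base was taken as 2 and the direction as Cy5 over Cy3, from the dyes and from cell type genes. All 10 fibroblast markers lay above the reference in control cells, with 8 called higher, and all 6 leukocyte markers tested lay below it, with 4 called lower; as they served to set the direction, they are no independent evidence of it. Dyes were not swapped, so the effect of the dye on a probe and a true difference to the reference cannot be told apart. The reference is 1 RNA with no spread of its own, 3 arrays a group limit the precision, and array intensities were not analysed here.

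A pyrimidine-rich start is a trait of this family that the choice by symbol did not use, so some gene starts are shown first. They are those of Rpl39l, Rps27l, Rpl38 and Rplp2, the members farthest from the reference, with 2 core partners and Rps6. Each stretch covers 30 bases, 15 on each side of the most upstream annotated start, written 5′ to 3′ on the coding strand. The capitals mark its longest unbroken run of C and T, which can lie before, across or after that start. In Rpl39l and Rps27l the run lies before the start and in Rpl39 after it. The marked run is thus not necessarily the TOP motif of the mRNA.
Rpl39l: ctcccaggCCTTTCCggatttccggtggtc
Rpl39: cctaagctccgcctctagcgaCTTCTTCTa
Rps27l: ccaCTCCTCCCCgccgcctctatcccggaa
Rps27: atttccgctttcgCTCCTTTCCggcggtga
Rpl38: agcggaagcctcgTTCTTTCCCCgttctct
Rplp2: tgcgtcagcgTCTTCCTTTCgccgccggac
Rps6: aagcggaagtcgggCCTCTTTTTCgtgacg
The stretches come from RefSeq, mouse build GRCm38.p6. Those on the plus strand are Rpl39l at chr16:10170213-10170242, Rps27l at chr9:66946071-66946100, Rpl38 at chr11:114668565-114668594 and Rplp2 at chr7:141447636-141447665. Those on the minus strand are Rpl39 at chrX:37085208-37085237, Rps27 at chr3:90213634-90213663 and Rps6 at chr4:86857353-86857382. The run is 10 bases long in Rpl38, Rplp2 and Rps6 and 7 bases in Rpl39l. Of starts not printed, it is 10 bases in Rpl22l1 and 5 in Rpl22, Rpl36a and Rpl36al, so the printed starts do not stand for the whole family. Over the 62 members found in the table the longest run had a median of 6 bases, against 4 over all 27018 genes of the table. A run of at least 8 bases was present in 24 of the 62 members (38.7%), against 11.8% of all genes. The letters CGGAAG, the core that Ets-family factors bind, or their reverse complement CTTCCG lay within the 300 bases around the start in 43 members (69.4%), against 17.2% of all genes. Such a match is a description of the letters only.

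In control cells most ribosomal protein genes lay slightly above the reference, and the genes farthest from it were the paralogs Rpl39l and Rps27l and the core gene Rpl38, above, and the stalk gene Rplp2, below. Of the 74 members tested, 51 were above 0 and 23 below, with a median log2 ratio of 0.22, against a median of 0.03 over all genes tested. The control mean passed the test (limma, Benjamini-Hochberg adjusted p under 0.05 over all 14523 genes) as higher than the reference for 29 members (39.2%), where 26.5% of all genes were called higher. It passed as lower for 3 members (4.05%), where 19.6% of all genes were called lower. The small subunit had 13 members called higher and 0 lower of 27 tested (median 0.32). At an unadjusted p under 0.05 these were 14 and 0, where 29.8% and 23.6% of all genes passed. The large subunit had 16 called higher and 3 lower of 47 (median 0.17).

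These counts rest on the centring and on single control arrays. Without centring each array on its median, 16 members were called higher and 13 lower, the median was 0.07, and 19.3% of all genes were called higher and 28.4% lower. Without control replicate 1 the calls were 14 higher and 6 lower, where 20.5% and 13.7% of all genes were called. Without control replicate 3 they were 18 higher and 1 lower, where 22.6% and 16.3% of all genes were called. Without control replicate 2 they were 24 higher and 1 lower, where 20.5% and 13.5% of all genes were called, and the lower count was also 1 without 10 nM replicate 2. Under every alternative that gave it a value, 11 of the 29 higher calls and 1 of the 3 lower calls held. The 11 were Rpl13a, Rpl22l1, Rpl23, Rpl36a, Rpl37a, Rpl38, Rpl39l, Rpl41, Rps2, Rps15 and Rps27l, and the 1 was Rplp2.

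**Figure D1:**
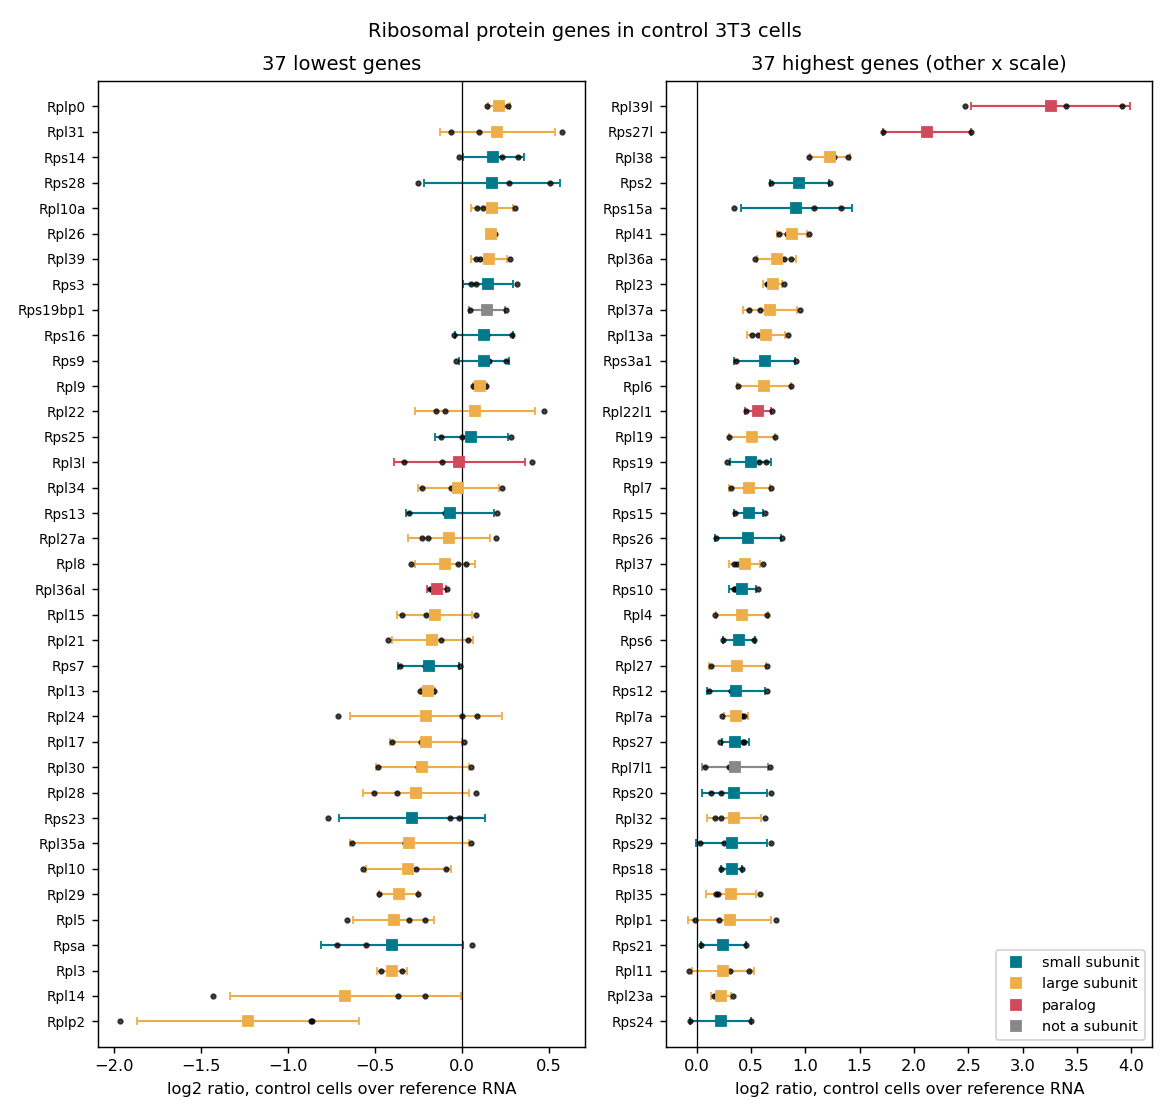
Log2 ratio of control cells over the reference RNA for the 74 ribosomal protein genes tested, in order of their mean, split into the 37 lowest (left) and the 37 highest (right, on another x scale). Squares are means and bars SDs over 3 control arrays, black dots are the arrays, and colour marks the subunit or paralog. Rpl39l and Rps27l stand apart at the top and Rplp2 at the bottom.

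Among the small subunit's core proteins, Rps2, at the mRNA entry channel, had log2 ratios of 1.23, 0.93 and 0.68 in control cells, and its mean was 0.95 ± 0.27 (SD, n = 3). Rps15a stood at 0.92 ± 0.51, with control arrays at 1.33, 1.08 and 0.34, and its call was lost without control replicate 1 or control replicate 2 (adjusted p from 0.00212 to 0.0797 over the alternatives, limma). The arrays of Rps2 lay closer together than those of Rps15a, whose lowest array was far below the other two. Rps6, the subunit that S6 kinases phosphorylate, had control ratios of 0.53, 0.40 and 0.24, with a mean of 0.39 (SE 0.13, adjusted p = 0.0281, limma). Rps19, the gene most often mutated in Diamond-Blackfan anemia in humans, stood at 0.50 (SE 0.16, adjusted p = 0.0245, limma). Both were called, and both calls were lost without centring and without some control arrays: over the alternatives the adjusted p ran from 0.0111 to 0.145 for Rps6 and from 0.0103 to 0.117 for Rps19 (limma).
Rps3, which lines the mRNA entry site, was at 0.15 (SE 0.10) and did not pass. Rpsa, also known as the laminin receptor precursor, was at -0.40 (SE 0.26) on 3 control arrays that ran from -0.71 to 0.06, and did not pass either. A second Rpsa probe, with values on only 3 arrays and not used for that value, had a control value of 0.90 without an SD. Fau, the small-subunit protein made as a fusion with a ubiquitin-like domain, has another symbol pattern and stood at 0.47 (adjusted p = 0.0107, limma).

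The large subunit held the widest range of the core genes. Rpl38, a protein known in mouse for its part in axial patterning, had control ratios of 1.40, 1.26 and 1.03, a mean of 1.23 (SE 0.13, adjusted p = 3.52e-05, limma). Its 3 probes did not agree in size: their means over all 12 arrays were 0.26, 1.43 and 1.89. All 3 lay above 0. Rpl41, the shortest ribosomal protein, was at 0.88 ± 0.14 (SD, n = 3) and Rpl36a at 0.74 ± 0.18. Rpl13a, which in human cells is also known for silencing inflammatory mRNAs, was at 0.64 ± 0.18.
Rpl5 and Rpl11 form, with the smallest ribosomal RNA, the particle that binds Mdm2 when assembly fails. They had ratios of opposite sign, a difference that was not tested. Rpl5 had control ratios of -0.21, -0.66 and -0.30, with a mean of -0.39 (SE 0.14, adjusted p = 0.0376, limma), and Rpl11 had 0.48, -0.07 and 0.31, with a mean of 0.24 (SE 0.16, adjusted p = 0.245, limma). The call of Rpl5 was lost when any 1 control array or 10 nM replicate 2 was left out, and its adjusted p ran from 0.00758 to 0.245 over the alternatives. Rpl10, which shapes the peptidyl transferase centre, was the remaining large-subunit gene called lower besides Rpl5 and Rplp2, at -0.31 (SE 0.11, adjusted p = 0.0438, limma). That call was lost in 9 of 22 alternatives. Rpl14 at -0.67 (SE 0.26) and Rpl29 at -0.36 (SE 0.15) were among the lowest and did not pass. Rpl14 passed in 7 of 22 alternatives and Rpl29 in 5. The control arrays of Rpl14 were at -0.21, -1.43 and -0.37, and its mean was -0.29 without replicate 2.

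The stalk, which recruits elongation factors to the large subunit, is built from the base protein Rplp0 and the acidic proteins Rplp1 and Rplp2. Its 3 genes had ratios of different sign, and the differences between them were not tested. Rplp2 was the lowest ribosomal protein gene, with control ratios of -0.86, -1.96 and -0.86 and a mean of -1.23 (SE 0.22, adjusted p = 0.000831, limma), 2.34-fold below the reference. Rplp1 was at 0.30 (SE 0.15, adjusted p = 0.108, limma) and Rplp0 at 0.22 (SE 0.10, adjusted p = 0.112, limma), and neither passed. A second Rplp1 probe, with values on 10 arrays and not used for that value, had a control mean of 0.68. Rplp1 passed in 1 alternative (adjusted p from 0.0135 to 0.655 over the alternatives, limma). Rplp2 was below 0 on all 12 arrays, between -1.96 and -0.26, and 1 probe reads it, so the gene value has no second probe beside it.

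The paralogs Rpl39l and Rps27l lay farthest from the reference. Rpl39l, a copy of Rpl39 known mainly from testis, had log2 ratios of 3.91, 3.40 and 2.47 in control cells, 2.95, 3.18 and 2.88 at 10 nM, 3.82, 3.12 and 3.57 at 100 nM, and 3.26, 3.16 and 2.52 at 1 µM. The groups overlap, and every one of the 12 arrays lies far above 0. Its control mean of 3.26 (SE 0.23, adjusted p = 2.69e-06, limma) is 9.58-fold above the reference, while its core gene Rpl39 was at 0.16 (SE 0.12). Rps27l, a paralog of Rps27 and a known target of p53, had 2.13, 2.53 and 1.72 in control cells, 2.12, 1.97 and 2.06 at 10 nM, 2.44, 2.04 and 2.15 at 100 nM, and 2.49, 2.09 and 1.42 at 1 µM. Its control mean of 2.12 (SE 0.19, adjusted p = 9.62e-06, limma) is 4.36-fold above the reference. Rps27 itself was at 0.36 (SE 0.09, adjusted p = 0.00907, limma), a call lost without centring and without control replicate 1 or 3 (adjusted p from 0.00764 to 0.123 over the alternatives).
The other pairs lay closer together. Rpl22l1, the paralog that can replace Rpl22, was at 0.57 (SE 0.11) against 0.08 (SE 0.16) for Rpl22. Rpl3l, the form of Rpl3 known from striated muscle, was at -0.01 (SE 0.24) against -0.40 (SE 0.23) for Rpl3. The order was turned round in the pair of Rpl36a: the paralog Rpl36al was at -0.14 (SE 0.11) and the core gene at 0.74 (SE 0.16). These are ratios of each gene to its own level in the reference, so they give no order of abundance between a paralog and its core gene, and the difference between them was not tested. Probe sequences were not used here, and signal from near-identical copies or processed pseudogenes cannot be told apart from that of the named gene.

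**Figure D2:**
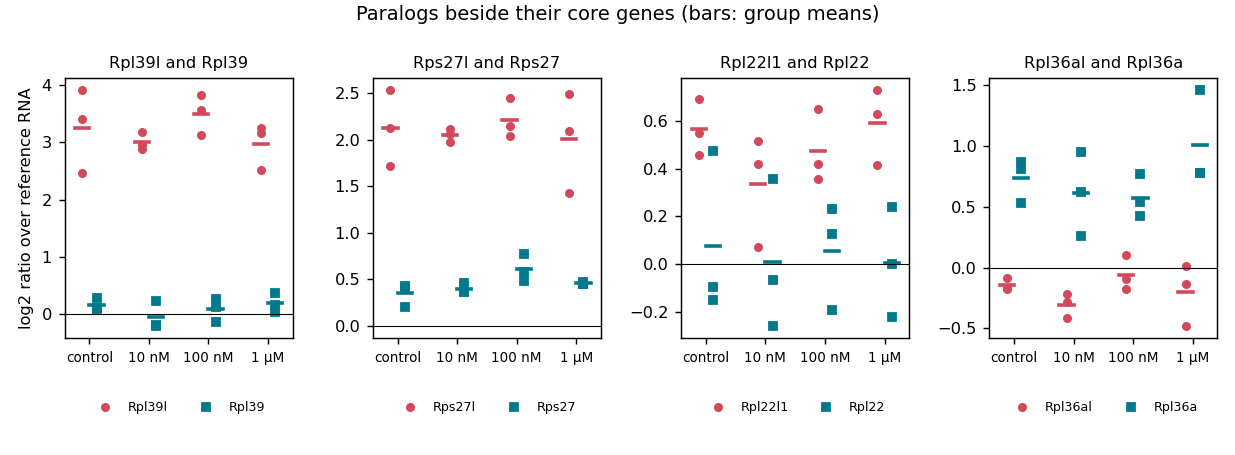
Log2 ratio over the reference RNA in control cells and at 3 doses of Shld1 for 4 paralogs (red circles) and their core genes (blue squares), each point 1 array and each bar the mean of 3 arrays, with a y scale for each pair. Rpl39l and Rps27l lie above their core genes on every array, and Rpl36al lies below Rpl36a on every array. Rpl22l1 and Rpl22 overlap in control cells and at 10 nM, and Rpl22l1 lies above Rpl22 at 100 nM and 1 µM.

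The members formed a tight group on each array. Their middle 50% spanned 0.47 to 0.69 log2 units, against 0.71 to 0.92 for the other genes. Replicate arrays were also closer for them: the median within-group SD was 0.20 over 69 members and 0.25 over all 12984 genes with a value on every array, and 46 of the 69 members had an SD below that. Within-group SDs ran from 0.10 for Rps27 to 0.53 for Rpl14.
The median of the members on each array was 0.36, 0.11 and 0.21 in control cells, 0.14, 0.18 and 0.03 at 10 nM, 0.21, 0.22 and 0.37 at 100 nM, and 0.29, 0.17 and 0.10 at 1 µM. Of the 9 Shld1 arrays, 1 at 10 nM and 1 at 1 µM had a median below all 3 controls and 1 at 100 nM had one above them. The mean of these medians was 0.23 ± 0.12 (SD, n = 3) in control cells, 0.12 ± 0.08 at 10 nM, 0.27 ± 0.09 at 100 nM and 0.19 ± 0.10 at 1 µM, with no order by dose.

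**Figure D3:**
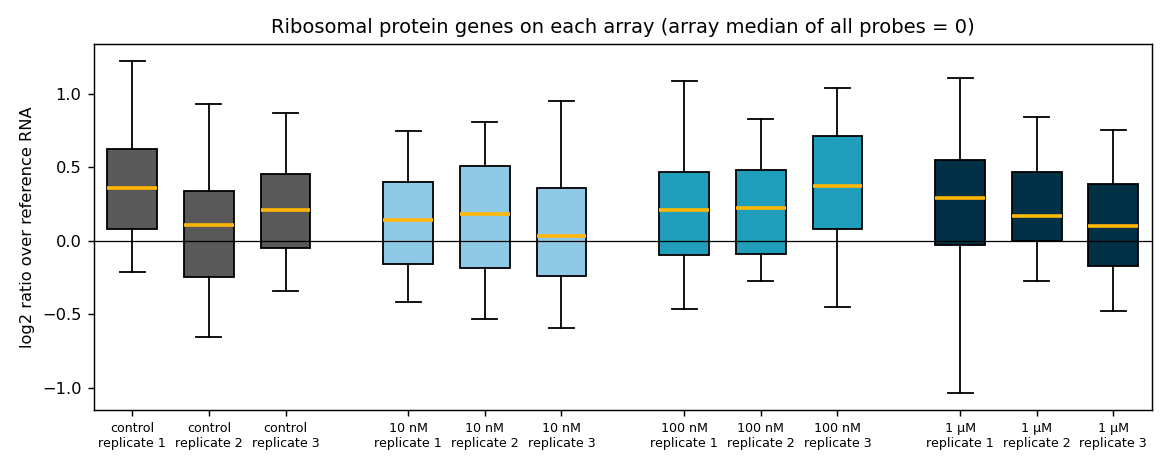
Log2 ratio over the reference RNA of the ribosomal protein genes tested on each of the 12 arrays, by group and replicate. Boxes span the middle 50% of the genes, yellow lines are medians and whiskers reach the percentiles 5 and 95; the medians of the groups overlap, with control replicates between 0.11 and 0.36.

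At 1 µM, the highest dose, no ribosomal protein gene passed the test, and the median of the family lay at the control mean. Of 74 members 37 were above and 37 below the control mean, with a median log2 change of 0.00, against -0.02 over all genes. Adjusted over all genes, 0 of 74 members passed, as 0 of 14523 genes did (0%; limma, Benjamini-Hochberg). At an unadjusted p under 0.05 there was 1 member, Rpl3l, against 4.26% of all genes. Each gene's 95% interval covers only the spread between these arrays. It lay within 1 log2 unit of 0 for 69 members (93.2%) and within 0.5 for 45 (60.8%), against 83.0% and 27.4% of all genes.
Rpl3l had log2 ratios of -1.66, -0.20 and -0.48 at 1 µM, against -0.33, 0.40 and -0.11 in control cells. The groups overlap, and the array at -1.66 lies apart from the other two at that dose. Its change was -0.77 (SE 0.34, unadjusted p = 0.0460, adjusted p = 0.999, limma), and it was -0.33 without that array and -1.06 without 1 µM replicate 2. Rplp2 had -1.20, -0.48 and -0.26 at 1 µM, against -0.86, -1.96 and -0.86 in control cells, a change of 0.58 (SE 0.31). This was the largest positive change, and it was 0.22 without control replicate 2, whose ratio of -1.96 lies far from the other two controls. Among members on all arrays, the next positive changes were 0.27 (SE 0.23) for Rpl36a and 0.18 (SE 0.20) for Rpl5, and the next negative ones were -0.29 (SE 0.24) for Rpl6 and -0.28 (SE 0.33) for Rpl39l. Of the members with missing values, Rpl3 stood at 0.28 (SE 0.30) and Rps2 at -0.34 (SE 0.20). Rps24 stood at -0.38 (SE 0.32) and Rpsa at -0.58 (SE 0.40), both on 2 arrays at this dose. The second Rps24 probe, with values on 10 arrays, had a change of 0.03.

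At 100 nM the members were again close to control. The median change was 0.06, against 0.02 over all genes, with 49 members above and 25 below the control mean. By the same test 0 of 74 members and 0 of 14523 genes (0%) passed, and 0 members had an unadjusted p under 0.05, against 3.02% of all genes. Rpl17, near the exit of the peptide tunnel, had 0.09, -0.07 and 1.40 at 100 nM, against -0.24, -0.40 and 0.01 in control cells, a change of 0.68 (SE 0.33) that was 0.22 without the array at 1.40. Its second probe, with values on 11 arrays, had a change of 0.02, and the mean of both probes gave 0.35. Rplp2 followed at 0.39 (SE 0.31), or 0.02 without control replicate 2. Rpl8, a conserved protein of the large subunit, had 0.12, 0.21 and 0.29 at 100 nM, against 0.02, -0.29 and -0.02 in control cells. All 3 treated arrays lie above all 3 controls, and the change was 0.30 (SE 0.15) and did not pass. The lowest were Rpl3l at -0.29 (SE 0.34), Rpl36a at -0.16 (SE 0.23) and Rpl31 at -0.15 (SE 0.21).

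At 10 nM most members lay a little below control. The median change was -0.09, against -0.01 over all genes, and 57 of 74 members (77.0%) were below the control mean, against 51.6% of all genes. No member passed the test, nor did any of 14523 genes (0%), and 0 members had an unadjusted p under 0.05, against 2.48% of all genes. The shift was spread over both subunits, with a median of -0.08 in the small and -0.09 in the large one. It depended on the control arrays: 41 members were below control without control replicate 1 (median -0.02), 68 without control replicate 2 (median -0.17), and 50 without 10 nM replicate 3.
Among members on all arrays, the lowest were Rpl3l at -0.45 (SE 0.34), Rpl31, a protein at the tunnel exit, at -0.33 (SE 0.21) and Rps19bp1 at -0.26 (SE 0.19). Rpl31 had -0.02, -0.29 and -0.05 at 10 nM, against 0.58, -0.06 and 0.10 in control cells. The groups overlap, and the difference was -0.14 without control replicate 1, the highest control array. The highest of them were Rplp2 at 0.53 (SE 0.31), Rpl10a at 0.15 (SE 0.13) and Rps15a at 0.11 (SE 0.34). Of the members with missing values, Rps24 stood at 0.21 (SE 0.28) and Rps2 at -0.30 (SE 0.20). The second Rps24 probe had a change of -0.09. Rplp2 had -0.66, -0.75 and -0.70 at 10 nM, all above the controls at -0.86, -1.96 and -0.86, and its change was 0.16 without control replicate 2.

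**Figure D4:**
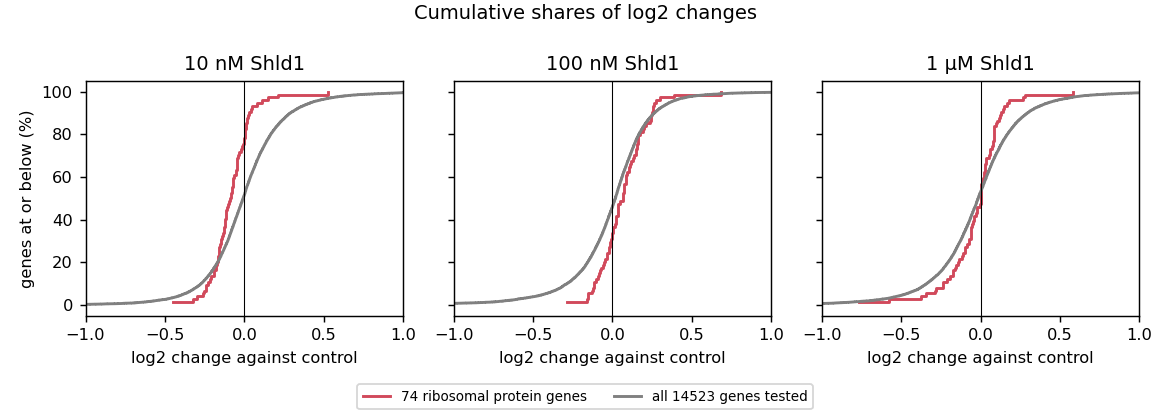
Cumulative share of genes, in percent, at or below each log2 change against control at 10 nM, 100 nM and 1 µM Shld1, for the 74 ribosomal protein genes (red) and all 14523 genes tested (grey). The red curves are steeper than the grey ones, with medians of -0.09 at 10 nM, 0.06 at 100 nM and 0.00 at 1 µM; changes beyond 1 log2 unit lie outside the axes.

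The 3 doses share the same control arrays, so the sides on which their medians fall are not independent. Leaving out control replicate 2 lowered all 3 medians, to -0.17 at 10 nM, -0.02 at 100 nM and -0.08 at 1 µM, and leaving out control replicate 1 gave -0.02, 0.13 and 0.06 at those doses. At 100 nM, leaving out replicate 3 of that group gave a median of 0.00 and 37 members above control. The array numbers in the titles are consecutive within each replicate number, 4 arrays each, 1 of every group. Within the arrays of number 1, 2 and 3 the median change of the members was -0.24, 0.08 and -0.12 at 10 nM, -0.13, 0.17 and 0.16 at 100 nM, and -0.11, 0.17 and -0.11 at 1 µM, so at no dose did the 3 have the same sign. With that number as a fixed block, 0 members were called at any dose.
Averaged over the doses, Shld1 cells had a median change of -0.02, with 30 members above control and 44 below, and 0 members passed (0%; limma) or had an unadjusted p under 0.05, against 3% of all genes.
Full separation of the arrays was read against its share in all genes as follows. At 1 µM all 3 arrays lay above all 3 controls for 1 of 71 members (3.35% of all genes), which was Rps27, and below for 0 (4.21% of all genes). At 100 nM they lay above for 3 of 71 (4.07% of all genes), Rpl7a, Rpl8 and Rps27, and below for 0 (3.25% of all genes). At 10 nM they lay above for 1 of 73 (3.11% of all genes), Rplp2, and below for 4 (3.28% of all genes): Rpl13, Rpl26, Rpl36al and Rps19bp1. Rpl13 and Rpl26 were singled out after their values were seen. Rps27 had 0.46, 0.48 and 0.45 at 1 µM and 0.58, 0.48 and 0.78 at 100 nM, against 0.42, 0.21 and 0.43 in control cells. The distance to the nearest control is small, and its changes of 0.11 (SE 0.13) at 1 µM and 0.26 (SE 0.13) at 100 nM did not pass.

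Rpl13a gives a view of the spread between probes, since 23 probes read it and 22 of them had a value on all 12 arrays. The source of that spread was not tested. In control cells their means ran from -0.73 to 1.12, with a median of 0.65 and an SD of 0.43 between probes, and 20 of 22 lay above 0. Changes against control spread far less, from -0.22 to 0.32 at 1 µM, from -0.24 to 0.30 at 100 nM and from -0.31 to 0.15 at 10 nM. At 1 µM 11 probes were above and 11 below control, at 100 nM 17 and 5, and at 10 nM 3 and 18, with 1 at 0. These probes share the RNA of each array and are not replicates of a dose. Over the 12 members with at least 2 probes on all arrays, the probes of a gene differed by a median of 0.56 in their mean ratio (0.17 to 1.84), and by more than 0.5 in 7 of them.

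**Figure D5:**
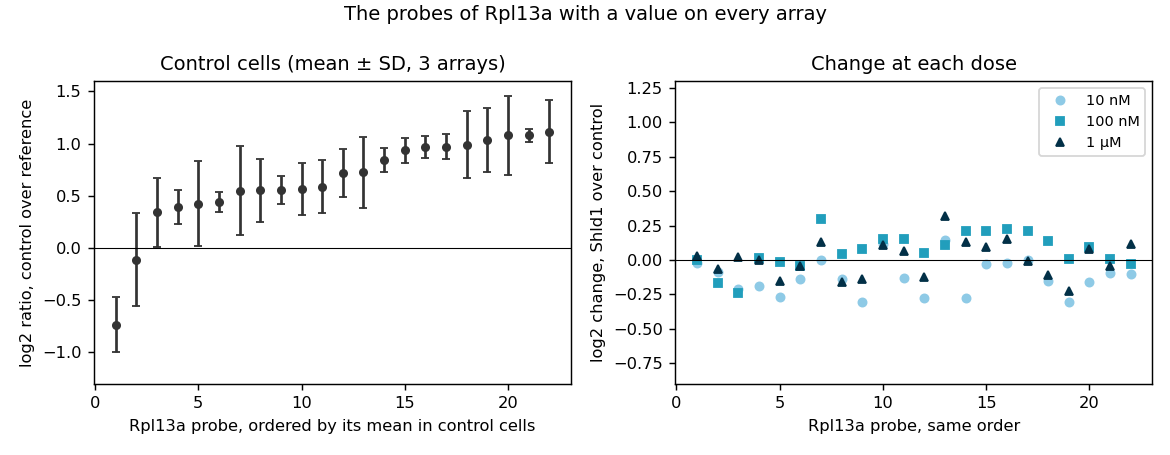
The 22 Rpl13a probes with a value on every array, in order of their mean in control cells. The left panel shows the log2 ratio of control over reference (mean ± SD of 3 arrays), which runs from -0.73 to 1.12, and the right panel the log2 change at 10 nM, 100 nM and 1 µM Shld1, which stays between -0.31 and 0.32.

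Other genes of the translation machinery, listed with earlier results of these arrays known, are given beside the ribosomal proteins. Of all genes tested, 26.5% were called higher and 19.6% lower than the reference in control cells. Of 15 other TOP-class genes tested, such as elongation factors, 8 were called higher (53.3%) and 1 lower (6.67%). Their median was 0.29, from Eif3f at -0.41 to Nap1l1 at 1.47. Of 38 ribosome biogenesis genes, 14 were called higher (36.8%) and 1 lower (2.63%), with a median of 0.18. They ran from Mrto4, a stalk assembly factor, at -0.45 to Rrs1, an assembly factor of the large subunit, at 2.24. Of 12 regulators of TOP mRNA translation, 3 were called higher (25%) and 1 lower (8.33%), with a median of 0.09. Their share called higher was near that of all genes. They ran from Mtor at -0.47 to Rheb, its activator, at 0.78.
In the Shld1 comparisons 0 genes of these 3 lists passed at any dose (limma; at an unadjusted p under 0.05 only 1 biogenesis gene at 1 µM). At 10 nM the medians were -0.06 for the TOP class, -0.08 for biogenesis and -0.04 for the regulators. At 1 µM they were 0.00, -0.08 and 0.06. Mitochondrial ribosomal proteins, which build a separate ribosome, had 20 of 76 called higher and 7 lower than the reference in control cells (26.3% and 9.21%, median 0.11). All genes had 26.5% called higher and 19.6% lower, so the share called higher was near theirs. Their changes against control had medians of -0.06 at 10 nM, 0.05 at 100 nM and -0.05 at 1 µM.
Cell type markers did not pass the test in these comparisons either. At 1 µM, 9 of 10 fibroblast markers were below control (changes from -1.26 to 0.07), and all 6 leukocyte markers tested were above it (0.01 to 1.04). Also above it were 4 of 5 epithelial, 4 of 4 skeletal muscle, 3 of 5 adipocyte and 1 of 3 endothelial markers. At 100 nM leukocyte markers were 1 above and 5 below, and at 10 nM 4 above and 2 below. Fibroblast markers were 5 above and 5 below at 100 nM, and at 10 nM 9 of 10 were below, as at 1 µM. Skeletal muscle markers were 4 of 4 above at 100 nM, as at 1 µM, and 2 of 4 at 10 nM. At 100 nM 3 of 5 epithelial, 4 of 5 adipocyte and 1 of 3 endothelial markers were above. At 10 nM these were 3 of 5, 2 of 5 and 1 of 3. The part of these markers in the ribosomal protein values was not tested.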

How the data were processed

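RNA of 12 samples of mouse 3T3 cells, 3 each of 4 groups, was measured on 2-colour arrays. The values used are the log2 ratios deposited by the authors, 1 per probe and array. The authors' normalization, background method and spot filtering were not given in the sources used here. Probes were named from the platform annotation in GEO: 26173 had 1 symbol, 28 several and 12583 none, and 2 probes with several symbols, a ribosomal one among them, were left out.

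Arrays were centred on the median of their probes. Probes of 1 gene with a value on all 12 arrays were averaged, and a gene without such a probe took its most complete one. Genes with at least 2 of 3 arrays in every group entered a limma 3.58.1 fit (R 4.3.3, all 12 arrays, group as the only term), with Benjamini-Hochberg adjustment over all genes at 0.05 and 95% intervals. Control against reference is the control mean against 0 in that fit. The fit was tested on simulated data. Members and lists were chosen with earlier results of these data known. Named are members that passed, the 3 highest and 3 lowest at each dose and 4 and 4 against the reference among genes on all arrays, and 19 set genes, of which Rps27a had no probe with 1 symbol here.

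Alternatives were no centring, other scalings, filters, probe averages, blocks by replicate number, array weights, robust variance, fits of 2 groups, single probes, leaving out each array and, chosen after seeing the data, values within each replicate number. Sequences are RefSeq promoter windows. Plots used matplotlib 3.10.9 (Python 3.11.15). Array number limits precision; signal over background is unknown.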

Additional observations from a re-analysis of the deposited data

How the results depend on the processing

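Under all alternatives with a test, 0 members and 0 genes were called at any dose or for the mean of the doses. With each array left out, the median change of the members ran from -0.17 to -0.02 at 10 nM, from -0.02 to 0.13 at 100 nM, from -0.08 to 0.06 at 1 µM and from -0.10 to 0.07 for the mean. Members at an unadjusted p under 0.05 numbered 0 to 2 at 1 µM, 0 to 4 at 100 nM and 0 to 1 at 10 nM. Against the reference, the calls were 16 higher and 13 lower without centring (median 0.0653) and 51 higher and 6 lower of 118 probes when each probe was fitted on its own (43.2% and 5.08%, where 25.2% and 19.5% of all 21951 probes were called). Leaving out 1 array gave 14 to 30 higher calls, 1 to 6 lower calls and medians of 0.16 to 0.31. The lower count was 1 without 10 nM replicate 2, control replicate 2 or control replicate 3. The cause of these shifts was not tested.

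The array numbers in the titles run in sequence by replicate number, though the labels name no shared batch or day. Residuals of same-numbered arrays correlated at 0.12 to 0.27 for number 1, -0.11 to 0.16 for number 2 and 0.02 to 0.28 for number 3. The means were 0.18, 0.01 and 0.13, against -0.06 between differently numbered arrays, which ran from -0.34 to 0.20. On average, arrays of numbers 1 and 3 were thus somewhat more alike than differently numbered ones. What the numbers stand for was not tested. With the number as a fixed replicate block, 0 members were called at any dose. Against the reference, Rpl14 (adjusted p = 0.0458, limma, and 0.0294 to 0.441 over its alternatives) and Rpl29 (0.029, and 0.0175 to 0.225) became lower calls. The lower call of Rpl10 and the higher calls of Rpl32, Rpl35 and Rps20 were lost. That fit had 27 higher and 4 lower calls, so the genes listed are not all those whose higher call changed. As a random block the number had a correlation of 0.0486, with 0 dose calls again. For 8 of 12 arrays the best match had the same number. Within the arrays of a number, an alternative added after seeing the data, the median change of the members was -0.240, 0.0775 and -0.117 at 10 nM, -0.131, 0.171 and 0.158 at 100 nM, and -0.112, 0.167 and -0.106 at 1 µM for numbers 1, 2 and 3.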

Other observations

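Set side by side without the controls, the arrays of the middle and the low dose did not overlap in their ribosomal medians. These were 0.21, 0.22 and 0.37 at 100 nM, against 0.14, 0.18 and 0.03 at 10 nM. The difference was not tested, since members are not replicates; the lowest array at 100 nM exceeded the highest at 10 nM by less than the SD within either group.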
